A study of Caenorhabditis elegans with 16 samples.

Results

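The comparison described here sets untreated *syp-2::AID* worms against untreated N2 worms of *Caenorhabditis elegans*, and its members are all genes that passed a filter on low counts in those 8 libraries, 11113 of the 42048 genes in the read-count table. The series holds 16 whole-worm RNA libraries, of which these are the 8 made from worms kept away from auxin. In the *syp-2::AID* strain, the degron tag that auxin acts on was added by CRISPR to the end of *syp-2*, with *dpy-10* as the co-injection marker, and the strain was homozygous for *ieSi38*, a transgene that expresses the plant F-box protein TIR1 from the *sun-1* promoter. N2, the laboratory wild type, carried neither the tag nor the transgene, so the tag, the transgene and any other difference between the strains cannot be told apart in this comparison. Each library came from a pool of adult worms, 18 to 24 h past the L4 stage, grown at 20 °C on *E. coli* OP50 and kept for 4 h on plates without auxin, and each strain had 4 replicates.

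SYP-2 is a structural protein of the central region of the synaptonemal complex, the zipper that holds paired chromosomes together during meiotic prophase. TIR1 joins the worm's own SCF ubiquitin ligase and, when auxin is present, brings degron-tagged proteins to it for destruction. Untreated worms of a degron strain serve as the baseline from which auxin effects are read, so the question here is how far this baseline differed from wild type before any auxin was given. An adult hermaphrodite is by RNA content largely germline, oocytes, embryos and intestine, and in whole-worm RNA fewer cells of a type and less RNA per cell cannot be told apart.

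Total counts per library ran between 15753730 and 18741524 in *syp-2::AID* and between 14214414 and 16563325 in N2. The scaling factors (TMM, which set the median gene near no change) lay between 0.977 and 1.11 in *syp-2::AID* and between 0.932 and 0.976 in N2. Levels below are CPM, each gene's count over the scaled total of its library, which compare libraries for 1 gene and not genes of different length. On the first principal component of the 8 libraries (46% of the variance) *syp-2::AID* lay at 2.52, 1.33, 28.9 and 28.4, against -14.6, -39.4, -29.1 and 22.01 in N2, so N2 replicate 4 stood with *syp-2::AID* replicates 3 and 4 rather than with the other N2 libraries.

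Of the 11113 genes, 278 (2.5%) passed the test at an adjusted p under 0.05 (edgeR's quasi-likelihood test, Benjamini-Hochberg adjustment over all genes tested). The strains were close to balanced in direction, with 138 genes higher (1.24%) and 140 lower (1.26%) in *syp-2::AID*. Counts of passing genes in the lists below are to be read beside these shares. The differences were small, with a median size of 0.46 on the log2 scale among genes that passed, and 35 genes (0.315%) passed the test and differed at least 2-fold, 27 of them higher and 8 lower. At an unadjusted p under 0.05 there were 2863 genes (25.8%). The groups of CPM values did not overlap for 275 of the 278 genes, where 14.3% of all genes tested showed no overlap. The count depended on single libraries: it was 2015 without N2 replicate 4 and 1162 without *syp-2::AID* replicate 1, and between 15 and 30 without any one of the other 6. Every one of the 278 genes kept its sign in each of these fits. That was all but fixed in advance, since the genes were picked on these libraries and 275 had no overlap, so it is no support.

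**Figure D1:**
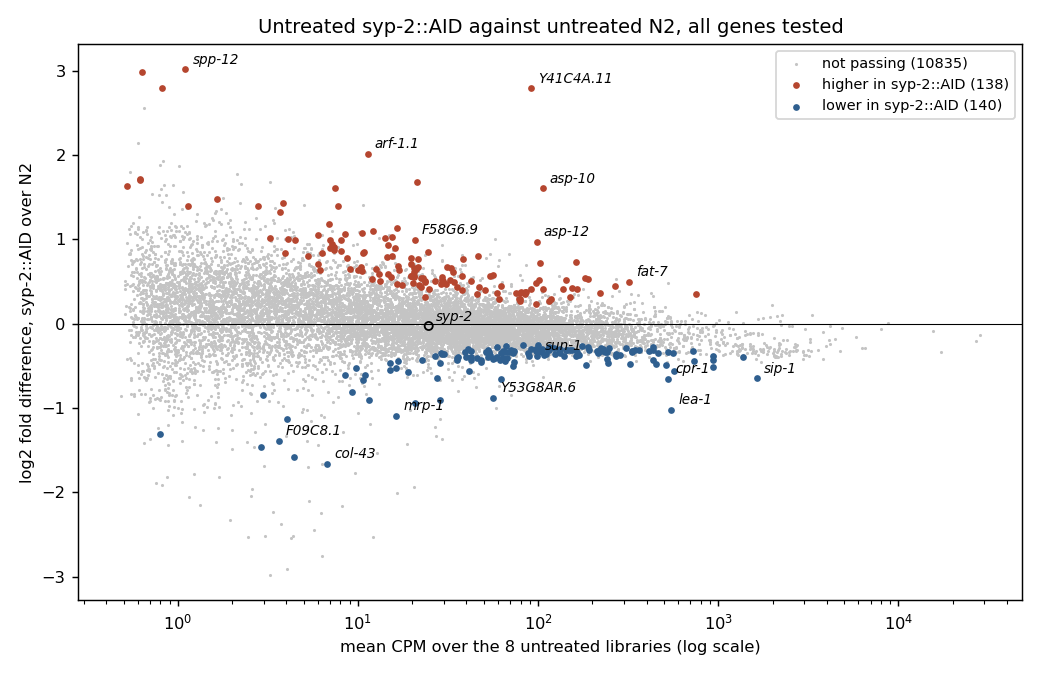
Each point is one of the 11113 genes tested, with its mean CPM over the 8 untreated libraries on a log axis and the log2 fold difference of *syp-2::AID* over N2 on the vertical axis; genes that passed the test are coloured by direction. The median difference was 0.62 among the 138 higher genes and -0.37 among the 140 lower ones, and *syp-2*, circled, lay at -0.03.

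The genes that define the strain showed no large difference. *syp-2* had 22.2, 26.6, 24.4 and 24.7 CPM in *syp-2::AID*, against 23.2, 27.1, 26.2 and 23.1 CPM in N2. These values overlapped throughout, and the fitted difference was -0.03 ± 0.09 on the log2 scale (SE, adjusted p = 0.88), with a sign that turned under 6 of the alternative settings. The tag leaves the coding sequence in place, so this count says nothing of whether a library carries the tag.

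*sun-1* encodes the inner nuclear membrane protein that links meiotic chromosomes to the cytoskeleton, and its promoter drives TIR1 in the transgene. It had 90.7, 90.6, 82.0 and 81.5 CPM in *syp-2::AID*, against 106, 117, 118.7 and 107 CPM in N2. Every *syp-2::AID* library was below every N2 library, with a log2 difference of -0.38 ± 0.07 (adjusted p = 0.0259). The fall lost the threshold in 8 of 19 alternative fits, 6 of them fits that left out a library. *unc-119*, a common transgene rescue marker, had a difference of -0.14 (adjusted p = 0.59), and *dpy-10*, a cuticle collagen, one of -0.43 (adjusted p = 0.44). *dpy-10* stood at 3.92 to 5.43 CPM in *syp-2::AID* and at 3.401 to 4.90 CPM in N2 except for 11.5 CPM in N2 replicate 4.

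No gene of the synaptonemal complex central region (6 tested), the HORMA-domain axis (4), cohesin and its regulators (12), the double-strand break machinery (10) or recombination and crossover factors (23) passed the test. Over all genes tested 2.5% passed, a share at which lists of this size hold few such genes or none. Over a wider list of 327 meiotic genes taken from the study, none rose and 8 fell, beside 1.24% and 1.26% of all genes tested. The median difference was -0.08 beside 0.01 over all genes tested, and the median was 0.06 when libraries were scaled by their totals alone. The count depended on the setting: 24 rose and 4 fell with library totals alone, 6 rose and 15 fell with upper-quartile factors, and 4 rose and 39 fell in DESeq2. Without *syp-2::AID* replicate 1, 5 rose and 55 fell, without N2 replicate 4, 6 rose and 66 fell, and without any one of the other 6 libraries none passed. With TMM scaling and no library left out, the 8 were *sun-1*, *hil-5*, a linker histone, *lsm-5*, an RNA-binding Sm-like protein, *cmd-1*, calmodulin, *smo-1*, the worm SUMO, *rpa-2*, a subunit of the single-strand DNA-binding complex, *mlc-4*, a myosin light chain, and *mrg-1*, a chromodomain protein of the germline. Their log2 differences lay between -0.48 for *hil-5* and -0.26 for *mrg-1*. *mrg-1* shows the size: it had 172, 164, 153 and 150 CPM in *syp-2::AID*, against 192, 192, 187 and 194 CPM in N2, a shift that no library overlapped.

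Most germline and oocyte genes did not pass, where 2.5% of all genes tested did. Of 31 P granule and germline RNA regulators, 28 had a negative difference, the median was -0.17 and 1 passed the test, *mex-3*. *mex-3* encodes a KH-domain RNA-binding protein of oocytes and early embryos, and had 552, 497, 472 and 453 CPM in *syp-2::AID*, against 629, 616, 650 and 622 CPM in N2 (-0.35 ± 0.07, adjusted p = 0.0407). Of 16 oocyte and eggshell genes, 15 had a negative difference (median -0.13) and none passed, and their summed level was 16651, 16751, 15442 and 14651 CPM in *syp-2::AID*, against 18895, 18872, 18923 and 17407 CPM in N2. The summed levels did not overlap, nor did those of all genes tested, which were also lower in *syp-2::AID* under this scaling (901130 to 1023600 CPM in *syp-2::AID* and 1025000 to 1072800 CPM in N2). With scaling by library totals alone, the medians were -0.03 for the P granule list and 0.01 for the oocyte list. The 6 vitellogenins, yolk proteins made in the intestine, had a median difference of -0.11, or 0.03 under library totals alone, and none passed.

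Of 78 ribosomal protein genes tested, 2 passed the test, where 2.5% of all genes tested did. Both were lower, *rpl-31* (-0.38, adjusted p = 0.0473) and *rpl-28* (-0.44, adjusted p = 0.0486). A negative difference was found in 77 of the 78, with a median of -0.32, and 68 were lower at an unadjusted p under 0.05, beside 1651 of all 11113 genes. *rpl-28* had 723, 624, 574 and 561 CPM in *syp-2::AID*, against 831, 926, 880 and 726 CPM in N2. The lowest N2 value, in replicate 4, nearly met the highest *syp-2::AID* value, in replicate 1. The summed level of the list was 142920, 128130, 112380 and 110630 CPM in *syp-2::AID*, against 153510, 173280, 157260 and 131470 CPM in N2, which overlapped. Without N2 replicate 4, 69 of these genes passed, and without *syp-2::AID* replicate 1, 42 passed, all of them lower, while none passed without any one of the other 6 libraries. None passed either with RLE factors, without robust estimation, in the fit of all 16 libraries or with the length trend removed.

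Of 30 histone genes tested, 6 fell and none rose, beside 1.26% and 1.24% of all genes tested, and 26 had a negative difference (median -0.33). The 6 included the core histone genes *his-59* (-0.81), *his-60* (-0.67), *his-67* (-0.60) and *his-68* (-0.56) and the linker histones *hil-4* (-0.43) and *hil-5* (-0.48). *his-68* had 37.0, 32.6, 31.6 and 33.1 CPM in *syp-2::AID*, against 50.2, 51.6, 54.0 and 42.3 CPM in N2, with no overlap. *his-59* and *his-60* are neighbours, as are *his-67* and *his-68*, and core histone genes have near-identical copies, so reads may be split among them. The summed level of the list also did not overlap, with 1531, 1446, 1340 and 1320 CPM in *syp-2::AID*, against 1730, 1832, 1842 and 1628 CPM in N2. The sum over all genes tested, given above, did not overlap either. Of the histone genes, 10 fell without *syp-2::AID* replicate 1, 12 fell and 2 rose without N2 replicate 4, and none passed without any one of the other 6 libraries. With the length trend removed, *his-59*, *his-60*, *his-67*, *hil-4* and *hil-5* lost the call. In the fit of all 16 libraries, *his-59*, *his-60*, *his-67*, *his-68* and *hil-4* lost it.

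**Figure D2:**
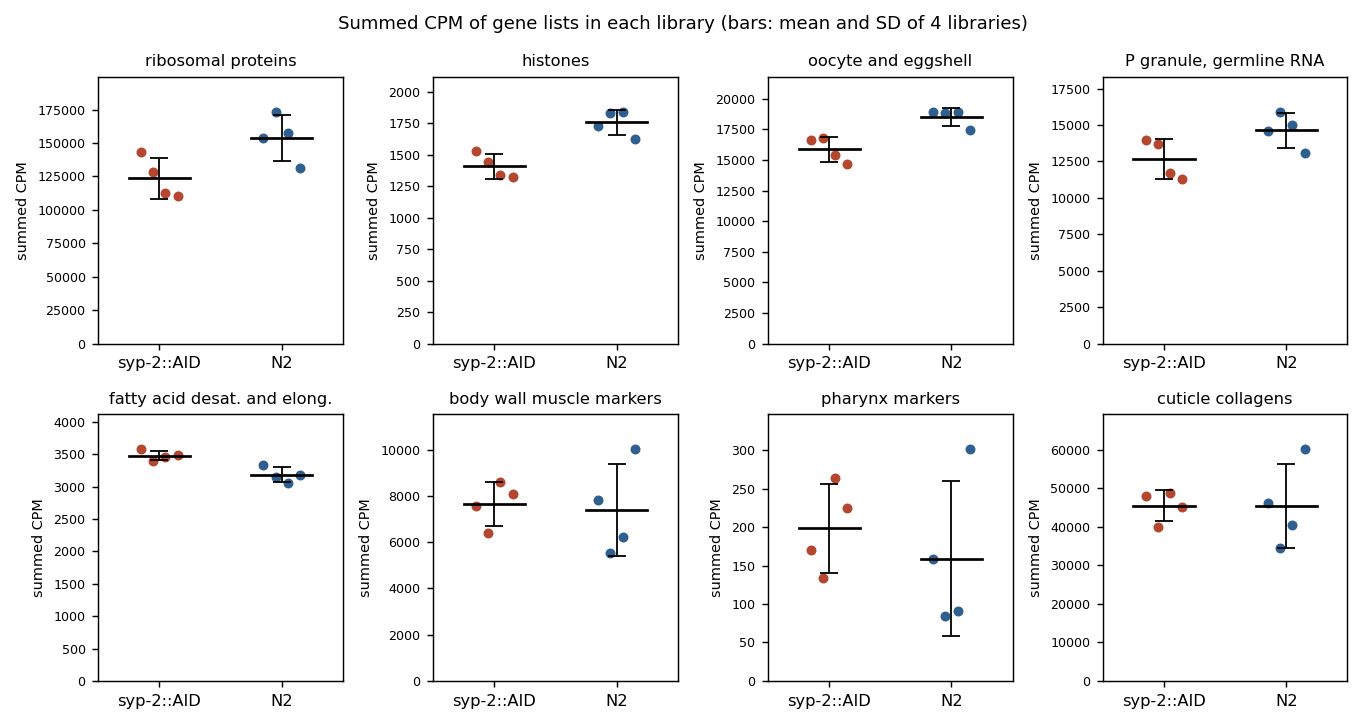
Summed CPM of 8 gene lists in each library, one point per library in replicate order, with the mean and SD of 4 libraries; each vertical axis starts at 0. Histone, oocyte and fatty acid sums did not overlap between strains, ribosomal and P granule sums did, and N2 replicate 4 had the highest sums of muscle markers, pharynx markers and collagens.

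None of the 16 body wall muscle, 9 pharynx, 18 neuron or 8 hypodermis markers tested passed, where 2.5% of all genes tested did. Without N2 replicate 4, 2 pharynx markers, 2 hypodermis markers and 1 muscle marker rose and 1 neuron marker fell, the pharynx median was 0.91 in place of 0.39, and the hypodermis median was 0.22 in place of -0.42. Without *syp-2::AID* replicate 1, 1 muscle and 1 neuron marker fell. Pharynx markers had 171, 133, 264 and 225 summed CPM in *syp-2::AID*, against 159, 84.7, 91.0 and 301 CPM in N2, so the N2 libraries spread more widely than the strains differed. The 103 cuticle collagens tested had a median of -0.39, which was 0.06 without N2 replicate 4 and -0.05 with at least 10 counts in every library, and 3 passed. *col-142* rose (0.73, adjusted p = 0.027), and *col-95* (-0.51, adjusted p = 0.0448) and *col-43* (-1.66, adjusted p = 0.0457) fell. Genes first transcribed in the embryo had a median of 0.29 over 19 tested, and none passed. Major sperm protein genes summed to 6.097, 6.47, 5.27 and 3.26 CPM in *syp-2::AID*, against 2.89, 73.0, 4.53 and 6.9995 CPM in N2, so N2 replicate 2 alone carried a sperm signal, and its part in the results was not tested.

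The call was steadiest in 12 genes, which passed in all 8 fits that left out a library; this group was chosen after its values were seen. In *syp-2::AID*, 8 were higher (*Y41C4A.11*, *arf-1.1*, *asp-10*, *F58G6.9*, *asp-12*, *R193.2*, *ugt-62* and *elo-1*) and 4 were lower (*Y53G8AR.8*, *Y53G8AR.6*, *cpr-1* and *W02B8.2*). Of the 12, 9 also passed in all 11 other settings, the exceptions being *elo-1*, *R193.2* and *W02B8.2*.

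Among genes that passed with a mean of at least 10 CPM, *Y41C4A.11*, a protein-coding gene of chromosome III, had the largest difference. It had 117, 135, 221 and 163 CPM in *syp-2::AID*, against 25.7, 22.95, 22.8 and 20.2 CPM in N2. The strains were far apart, 6.94-fold (log2 2.79 ± 0.20, adjusted p = 0.00159), and the *syp-2::AID* libraries spread more than the N2 libraries. *arf-1.1*, a small GTPase of the ADP-ribosylation factor family, had 10.99, 15.6, 25.2 and 20.8 CPM in *syp-2::AID*, against 5.33, 4.76, 3.36 and 4.47 CPM in N2 (log2 2.02 ± 0.25, adjusted p = 0.00797). In both genes replicate 3 was the highest and replicate 1 the lowest of the *syp-2::AID* libraries. *R193.2* had 56.6, 59.6, 58.5 and 60.8 CPM in *syp-2::AID*, against 30.9, 37.4, 29.5 and 37.0 CPM in N2 (log2 0.80 ± 0.09, adjusted p = 0.00226), a narrow group in each strain.

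Protein-digesting enzymes changed in both directions. *asp-10* and *asp-12* encode aspartyl proteases, a class of lysosomal and digestive enzymes. *asp-10* had 134, 151, 176 and 177 CPM in *syp-2::AID*, against 50.5, 45.4, 45.0 and 69.0 CPM in N2 (log2 1.60 ± 0.15, adjusted p = 0.00256). *asp-12* had 114, 145, 117 and 144 CPM in *syp-2::AID*, against 79.6, 55.7, 71.3 and 58.1 CPM in N2 (log2 0.97 ± 0.13, adjusted p = 0.00992). Neither gene overlapped between strains. Of the 12 *asp* genes tested these 2 rose, 1 fell (*asp-14*, -0.52, adjusted p = 0.0499) and 9 did not pass. Among the 5 cathepsin B-like *cpr* genes tested, *cpr-5* rose (0.35, adjusted p = 0.0473), while *cpr-1* and *cpr-6* fell. *cpr-1*, a gut cysteine protease, had 441, 362, 436 and 397 CPM in *syp-2::AID*, against 675, 597, 613 and 682 CPM in N2 (log2 -0.65 ± 0.08, adjusted p = 0.00679). *cpr-6* differed by -0.39 (adjusted p = 0.0473). These families were picked out after their values were seen.

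Among 12 intestine markers, 1 rose and 3 fell. The riser was *ifb-2*, an intermediate filament of the gut's terminal web, with 90.0, 87.0, 93.7 and 84.8 CPM in *syp-2::AID*, against 64.1, 68.0, 64.1 and 79.5 CPM in N2. The markers that fell were *cpr-1*, *cpr-6* and *mtl-2*, so the list had no single direction and its median was 0.05. *mtl-2*, a metallothionein that binds heavy metals, had 13.3, 12.22, 13.1 and 10.4 CPM in *syp-2::AID*, against 19.8, 16.6, 18.0 and 17.1 CPM in N2 (log2 -0.54 ± 0.11, adjusted p = 0.0399).

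*C. elegans* cannot make heme and takes it up through HRG transporters of the intestine. *hrg-1* had 18.7, 15.8, 25.6 and 23.3 CPM in *syp-2::AID*, against 10.6, 9.39, 9.80 and 10.999 CPM in N2 (log2 1.03 ± 0.15, adjusted p = 0.0129). *hrg-4* was low throughout, with 1.57, 1.59, 1.42 and 2.00 CPM in *syp-2::AID*, against 0.578, 0.456, 0.439 and 1.00 CPM in N2 (log2 1.40 ± 0.32, adjusted p = 0.0469). *mrp-5*, the transporter that exports heme from the intestine, had 92.3, 93.1, 103 and 92.2 CPM in *syp-2::AID*, against 75.5, 64.6, 71.1 and 82.7 CPM in N2 (log2 0.37 ± 0.08, adjusted p = 0.0407). None of the 3 overlapped between strains, and the remaining tested *hrg* gene did not pass. The call was lost in 2 of 19 alternative fits for *hrg-1*, 9 of 18 for *hrg-4* and 8 of 19 for *mrp-5*.

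*F58G6.9*, named *chca-1* in the current annotation, encodes a copper importer and had 25.6, 29.5, 28.2 and 26.5 CPM in *syp-2::AID*, against 13.3, 13.2, 13.6 and 15.0 CPM in N2. The difference was 2.00-fold (log2 1.00 ± 0.09, adjusted p = 0.0015). *cuc-1*, the copper chaperone of the cytosol, had 30.7, 34.2, 33.8 and 40.0 CPM in *syp-2::AID*, against 22.3, 23.1, 25.7 and 25.2 CPM in N2 (log2 0.52 ± 0.09, adjusted p = 0.0281). The heme and copper genes were picked out after their values were seen.

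On the list of 11 tested metal-response genes, 3 rose and 1, *mtl-2*, fell. The 3 risers belong to the *cdr* family, named for cadmium response. *cdr-2* had 4.35, 4.83, 6.17 and 5.90 CPM in *syp-2::AID*, against 2.63, 2.28, 1.75 and 1.80 CPM in N2 (log2 1.32 ± 0.21, adjusted p = 0.0168). *cdr-4* differed by 0.99 ± 0.19 (adjusted p = 0.0348) and *cdr-6*, the neighbour of *cdr-2* on chromosome V, by 0.71 ± 0.15 (adjusted p = 0.0407). The fourth tested member, *cdr-7*, was at 0.77 and did not pass. Of 19 alternative fits, 6 lost the call of *cdr-2*, 6 that of *cdr-4* and 7 that of *cdr-6*.

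Of 19 fatty acid desaturation and elongation genes tested, 4 rose and none fell, with a median of 0.14, and the summed level was 3580, 3403, 3465 and 3486 CPM in *syp-2::AID*, against 3341, 3149, 3066 and 3184 CPM in N2. *elo-1*, an elongase of polyunsaturated fatty acids, had 194, 229, 212 and 230 CPM in *syp-2::AID*, against 145, 159, 146 and 144 CPM in N2 (log2 0.54 ± 0.07, adjusted p = 0.00679). *elo-2*, the palmitate elongase, had 113, 118, 131 and 116 CPM in *syp-2::AID*, against 76.0, 75.4, 79.9 and 102 CPM in N2 (log2 0.52 ± 0.10, adjusted p = 0.0299). In *elo-2* the N2 library nearest to *syp-2::AID* was replicate 4. Its call was lost in 7 of 19 alternative fits, and that of *elo-1* in 1.

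*fat-7*, a stearoyl-CoA desaturase, had 368, 365, 370 and 399 CPM in *syp-2::AID*, against 278, 295, 278 and 212 CPM in N2 (log2 0.50 ± 0.09, adjusted p = 0.0337). *fat-4*, the delta-5 desaturase of arachidonic and eicosapentaenoic acid synthesis, differed less, with 120, 125, 132 and 140 CPM in *syp-2::AID*, against 102, 99.6, 104 and 116 CPM in N2 (log2 0.29 ± 0.07, adjusted p = 0.0498). *fat-7* has a close paralogue in *fat-6*, which differed by 0.06 and did not pass, so part of its reads may be shared. *acs-1*, an acyl-CoA synthetase outside the list, had 215, 221, 230 and 226 CPM in *syp-2::AID*, against 149, 147, 147 and 177 CPM in N2 (log2 0.53 ± 0.07, adjusted p = 0.008). Of 19 alternative fits, 7 lost the call of *fat-7*, 11 that of *fat-4* and 2 that of *acs-1*.

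Of the genes of sphingolipid and glycolipid synthesis, 4 that passed were picked out after their values were seen, so their shared direction is no result. *sptl-1* and *sptl-2* encode subunits of serine palmitoyltransferase, the first enzyme of the pathway, and differed by 0.41 (adjusted p = 0.0133) and 0.68 (adjusted p = 0.0457). *sptl-1* had 113, 127, 123.3 and 121 CPM in *syp-2::AID*, against 85.3, 90.8, 90.9 and 96.8 CPM in N2, a gap wider than the spread of each strain, and the remaining tested gene, *sptl-3*, did not pass (0.49, adjusted p = 0.0603). *cgt-3*, a ceramide glucosyltransferase, differed by 0.56 (adjusted p = 0.0211), with its 2 tested paralogues not passing, and *bre-3*, a glycosyltransferase of glycosphingolipids, by 0.50 (adjusted p = 0.0275). Of 19 alternative fits, 5 lost the call of *sptl-1*, 9 that of *sptl-2*, 7 that of *cgt-3* and 8 that of *bre-3*.

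**Figure D3:**
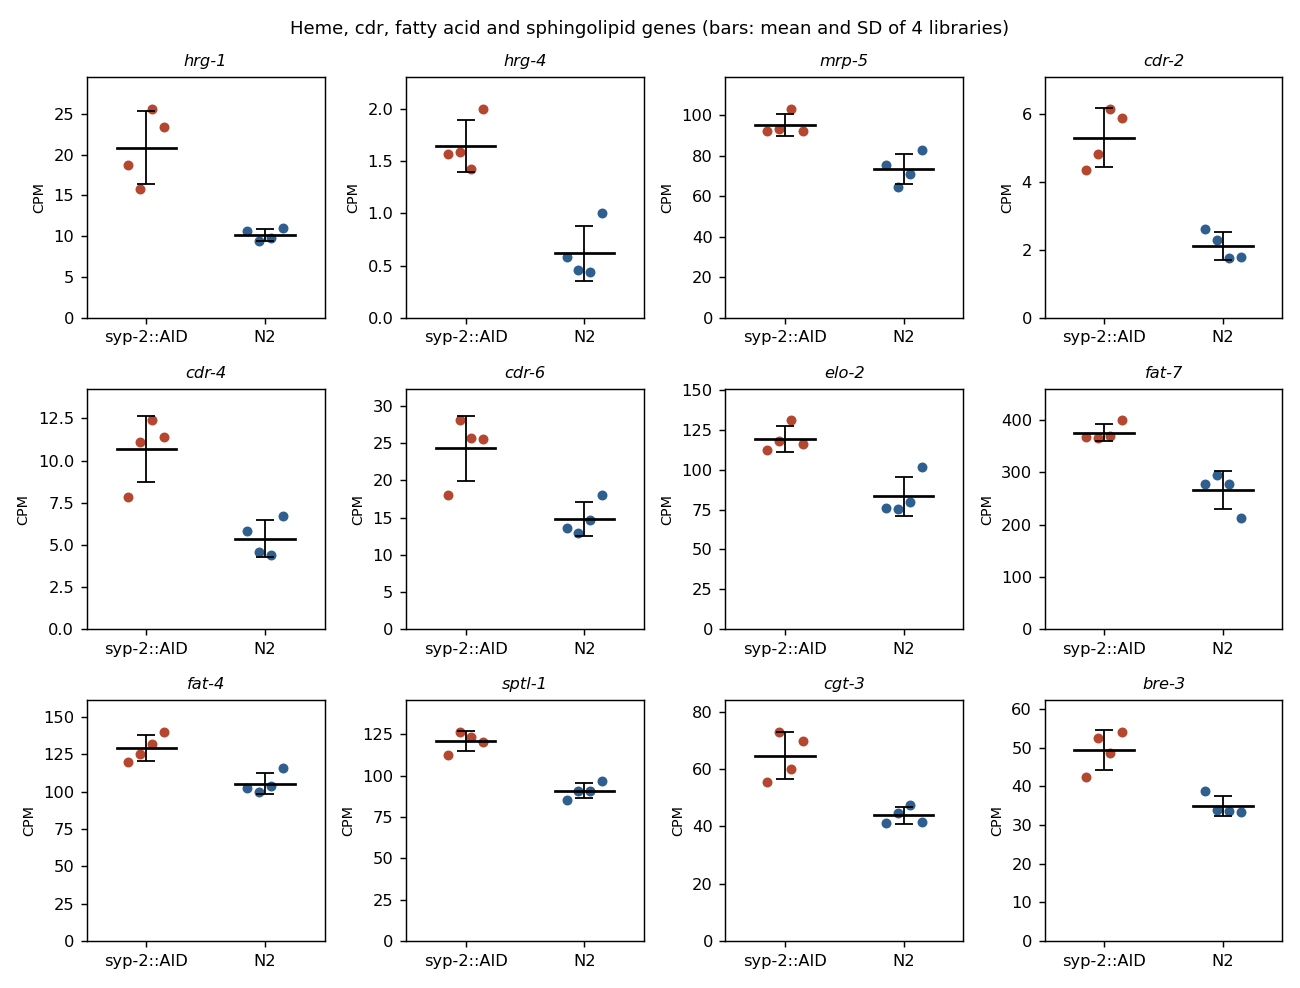
CPM of 12 genes of heme transport (*hrg-1*, *hrg-4*, *mrp-5*), the *cdr* family, fatty acid synthesis (*elo-2*, *fat-7*, *fat-4*) and sphingolipid synthesis (*sptl-1*, *cgt-3*, *bre-3*), one point per library with the mean and SD of 4 libraries; each vertical axis starts at 0. In every panel but that of *cdr-6* all *syp-2::AID* libraries lay above all N2 libraries, and in *cdr-6* replicate 1 of *syp-2::AID* (18.05 CPM) met N2 replicate 4 (18.07 CPM).

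Most detoxification genes tested did not pass, and of all genes tested 1.24% rose. Of 47 UDP-glucuronosyltransferases tested, which add sugars to small molecules, 2 rose, none fell and 37 had a positive difference (median 0.28). *ugt-62* had 41.5, 53.6, 47.1 and 51.4 CPM in *syp-2::AID*, against 26.4, 27.8, 30.7 and 29.0 CPM in N2 (log2 0.77 ± 0.09, adjusted p = 0.00422), and *ugt-19* was at 1.01 ± 0.21 (adjusted p = 0.0416). One of 31 glutathione S-transferases rose (*gsto-1*, 0.81), and 1 of 42 cytochrome P450s (*cyp-33C8*, 0.95). The call was lost in 6 of 19 alternative fits for *ugt-19*, and in 8 of 19 for each of *gsto-1* and *cyp-33C8*. *rhy-1*, a regulator of the hypoxia pathway, rose by 0.84 ± 0.18 (adjusted p = 0.0407), the only one of 12 hypoxia genes tested to pass. *hsp-17*, a small heat shock protein, rose by 0.52 ± 0.11 (adjusted p = 0.0399), the only one to pass on a list of 16 heat shock genes tested. That list leaves out *sip-1*, another small heat shock protein, which fell (-0.64, adjusted p = 0.00797) and is described below. Of 19 alternative fits, 8 lost the call of *rhy-1* and 7 that of *hsp-17*.

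Most secreted defence genes tested did not pass, and those that did went both ways. Of all genes tested 1.24% rose and 1.26% fell. Of 71 C-type lectins tested, 2 rose (*clec-41*, 0.56, and *clec-70*, 2.79) and 2 fell (*clec-50*, -0.49, and *clec-85*, -0.94). The value of *clec-70* rests on 14, 35, 34 and 23 counts in *syp-2::AID* and 5, 0, 6 and 1 in N2. Its call was lost in 7 of 18 alternative fits, and those of *clec-41*, *clec-50* and *clec-85* in 7 of 19 each. Of 46 lysozymes and antimicrobial peptides, 2 rose and 2 fell. *spp-12*, a saposin-like pore-forming peptide, had 1.81, 3.24, 1.37 and 1.43 CPM in *syp-2::AID*, against 0.0642, 0.196, 0.439 and 0.267 CPM in N2, which rest on 1, 3, 6 and 4 counts in N2 (log2 3.02 ± 0.48, adjusted p = 0.0168). *spp-23*, of the same family, had 22.9, 20.8, 17.5 and 16.04 CPM in *syp-2::AID*, against 9.75, 9.65, 8.55 and 12.4 CPM in N2 (log2 0.94 ± 0.15, adjusted p = 0.0168). *lys-4*, a lysozyme, had 206, 216, 195 and 205.3 CPM in *syp-2::AID*, against 297, 278, 289 and 268 CPM in N2 (log2 -0.46 ± 0.06, adjusted p = 0.00679), and *ilys-5*, an invertebrate-type lysozyme, was at -0.48. The 2 lysozymes that passed were lower and the 2 saposin-like genes that passed were higher. With 42 of the 46 not passing, this is no result about these classes. The call was lost in 3 of 18 alternative fits for *spp-12*, and in 4 of 19 for *spp-23*, 2 of 19 for *lys-4* and 7 of 19 for *ilys-5*.

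The other large rises were mostly in genes of low counts. *T24B8.5*, a reporter gene of the p38 immune pathway, stood at 1.19 ± 0.26, *amt-1*, an ammonium transporter, at 1.40 ± 0.26, *far-3*, a fatty acid and retinol binding protein, at 1.08 ± 0.15, and *ttr-42*, a transthyretin-like protein, at 1.13 ± 0.22. Of 19 alternative fits, 9 lost the call of *T24B8.5*, 6 that of *amt-1*, 1 that of *far-3* and 6 that of *ttr-42*. *D1086.3* was at 1.68, *B0205.13* at 1.61, *T23B12.8* at 1.48, *R07E4.3* at 1.43, *F58A6.1* at 1.39, *B0035.13* at 1.11, *Y51A2D.14* at 1.07, *F35F10.1* at 1.05 and *ZK909.6* at 1.02. The highest mean CPM of these, with no account of gene length, was that of *D1086.3*. It had 26.6, 23.01, 43.9 and 36.3 CPM in *syp-2::AID*, against 10.0, 6.91, 6.80 and 16.7 CPM in N2 (adjusted p = 0.0473). Of 19 alternative fits, 7 lost the call of *D1086.3*, 6 that of *F58A6.1*, 5 that of *B0205.13* and 4 that of *R07E4.3*.

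Among the genes that fell, 3 with consecutive names on one clone moved alike. *Y53G8AR.6* had 45.8, 39.6, 37.8 and 35.0 CPM in *syp-2::AID*, against 68.2, 71.01, 74.8 and 76.8 CPM in N2 (log2 -0.88 ± 0.08, adjusted p = 0.0015). *Y53G8AR.8* had 21.0, 22.2, 19.4 and 16.95 CPM in *syp-2::AID*, against 38.8, 37.2, 39.5 and 33.5 CPM in N2 (log2 -0.90 ± 0.10, adjusted p = 0.00226). *Y53G8AR.7* had 2.78, 2.62, 2.37 and 2.35 CPM in *syp-2::AID*, against 5.58, 5.999, 5.41 and 5.13 CPM in N2 (log2 -1.13 ± 0.17, adjusted p = 0.0133). All 3 were lower in each *syp-2::AID* library than in any N2 library. From the same clone, *Y53G8AR.5* (0.02, adjusted p = 0.94) and *Y53G8AR.9* (-0.21, adjusted p = 0.13) did not pass. *Y53G8AR.6* and *Y53G8AR.8* are next to each other on chromosome III among genes tested, and *Y53G8AR.7* was not placed by the annotation used for order. No run of 3 or more neighbours called in 1 direction was found on any chromosome.

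*W02B8.2*, named *citk-1* in the current annotation for its likeness to citron kinase of cytokinesis, had 49.4, 50.0, 46.4 and 48.5 CPM in *syp-2::AID*, against 73.3, 81.5, 71.5 and 78.4 CPM in N2. The libraries of each strain lay close together and the strains did not overlap (log2 -0.65 ± 0.06, adjusted p = 0.0015). *mrp-1*, a multidrug-resistance ABC transporter, had 9.84, 10.2, 10.8 and 10.7 CPM in *syp-2::AID*, against 21.9, 16.37, 20.7 and 29.4 CPM in N2 (log2 -1.09 ± 0.16, adjusted p = 0.0113). *F09C8.1* had 1.99, 1.69, 1.95 and 2.41 CPM in *syp-2::AID*, against 5.71, 4.43, 4.97 and 5.93 CPM in N2 (log2 -1.39 ± 0.19, adjusted p = 0.00992). The N2 libraries of both genes were above all *syp-2::AID* libraries.

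*lea-1*, a late embryogenesis abundant protein known from desiccation survival, had 422, 402, 321 and 305 CPM in *syp-2::AID*, against 766, 887, 797 and 483 CPM in N2 (log2 -1.02 ± 0.19, adjusted p = 0.0399). N2 replicate 4 was closest to the *syp-2::AID* libraries, and the call of *lea-1* was lost in 7 of 19 alternative fits. *sip-1*, a small heat shock protein of embryos, had 1386, 1282, 1259 and 1167 CPM in *syp-2::AID*, against 1980, 2042, 2112 and 1817 CPM in N2 (log2 -0.64 ± 0.09, adjusted p = 0.00797). The neighbouring catalases *ctl-1* (-0.43) and *ctl-2* (-0.50) fell together, but their sequences are close enough for reads to be shared. *scl-2*, a secreted SCP-domain protein, was at -1.58, *Y8A9A.2* at -1.47, *dyf-3*, a cilium gene, at -0.90, *Y47G7B.2* at -0.84, *Y57G11C.51* at -0.64 and *zip-11*, a bZIP factor, at -0.61.

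By mean CPM, with no account of gene length, *cpr-5* was the highest of the risers, with *skpo-1*, a heme peroxidase (0.45), and *T25B9.9* (0.36) beside *fat-7* and *acs-1*. By the same measure *sip-1*, *cpr-6*, *col-95* and *lbp-9*, a lipid-binding protein (-0.43), were among the highest of the genes that fell. Of the 98 genes named by the rule or added after their values were seen, 21 overlap another gene in the annotation, among them *lea-1*, *far-3*, *Y53G8AR.8*, *sip-1*, *acs-1*, *col-142* and *cht-1*, and their values are uncertain to that extent, since the counting's strand setting is not given in the sources used here. Among other families, 2 of 59 MATH and BTB genes rose (*bath-41*, 0.35, and *bath-2*, 0.65), 1 of 144 nuclear hormone receptors rose (*nhr-115*, 1.70), and none of the 85 F-box genes or the 20 SCF ligase genes tested passed. The value of *nhr-115* rests on 13, 19, 19 and 18 counts in *syp-2::AID* and 3, 4, 6 and 4 in N2. Its call was lost in 7 of 18 alternative fits, and those of *bath-41* and *bath-2* in 11 of 19 each.

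**Figure D4:**
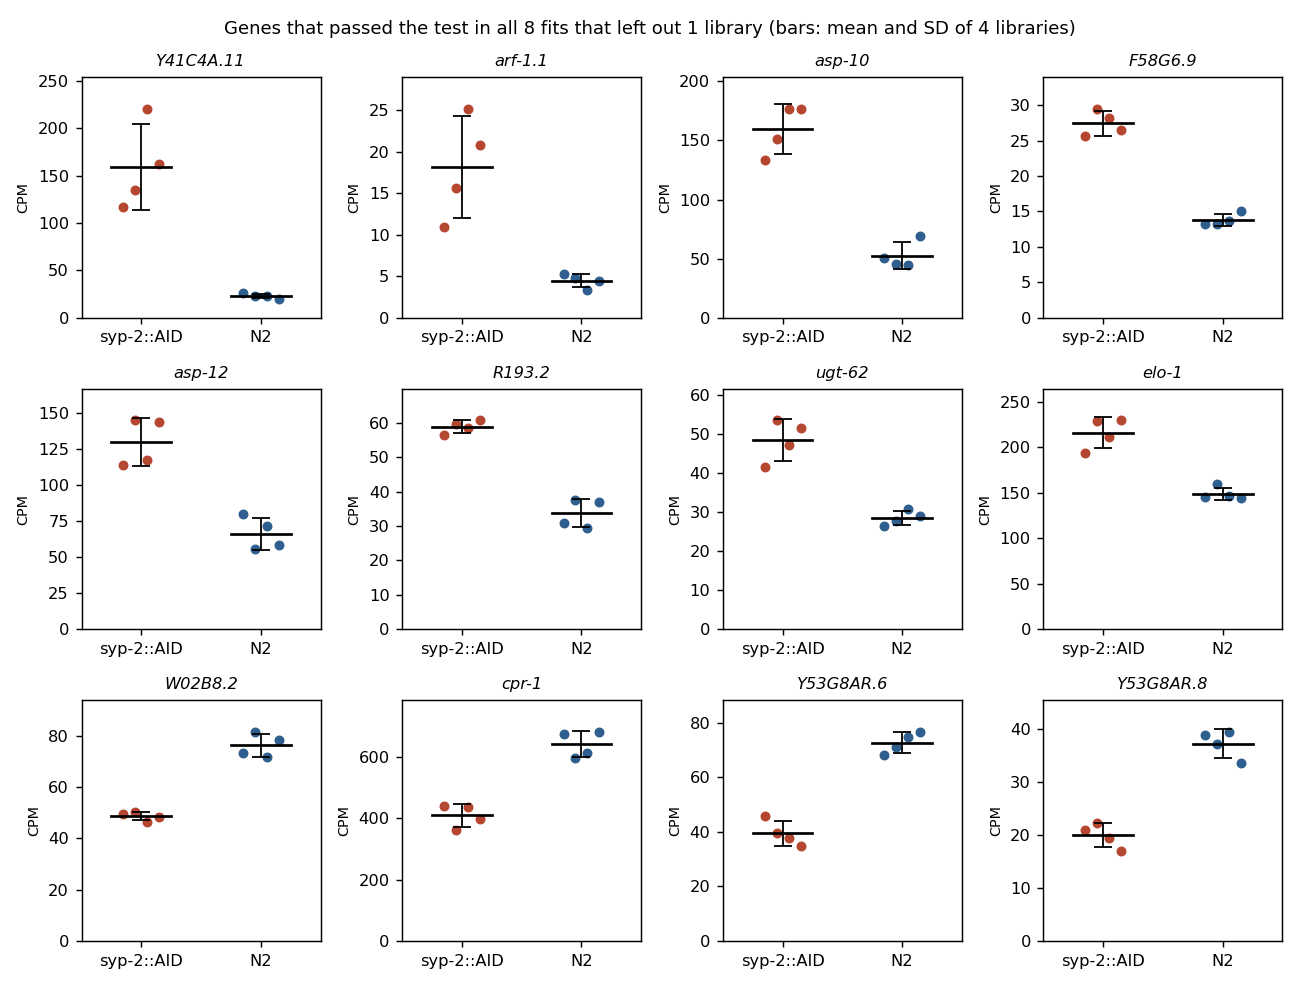
CPM of the 12 genes that passed in all 8 fits that left out a library, one point per library in replicate order, with the mean and SD of 4 libraries and each vertical axis starting at 0. The 8 higher genes come first, with *Y41C4A.11* at 117 to 221 CPM in *syp-2::AID* and 20.2 to 25.7 CPM in N2, and no panel has overlapping strains.

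By chromosome, the genes that rose made up 0.705% of those tested on I, 1.42% on II, 0.817% on III, 1.59% on IV, 1.78% on V and 1.14% on X. Those that fell made up 1.73% on I, 1.36% on II, 0.98% on III, 1.42% on IV, 1.63% on V and 0.444% on X. The median difference was lowest on I (-0.04) and highest on X (0.12). The 10 pairs of neighbours called in 1 direction included the histone, catalase, *cdr* and *Y53G8AR* pairs above. No gene was near absent in one strain and present in the other by the rule used (at most 3 counts in every library of one and at least 20 in every library of the other).

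The same strains on auxin plates give 8 further libraries that share no worms with those above. The worms of these libraries were on 4 mM auxin for 4 h, the treatment that depletes SYP-2 in *syp-2::AID*. Strain and loss of SYP-2 thus cannot be told apart in them, and agreement with the untreated libraries was read only as a description. There, 3 of 11244 genes (0.0267%) passed, *F57H12.6*, *spp-23* and *Y53G8AR.6*, with 16.7% at an unadjusted p under 0.05. The auxin-treated *syp-2::AID* replicates 3 and 4 stood apart from all other libraries, at 55.6 and 65.8 on the first principal component of the 16 libraries, where the other 6 auxin-treated libraries lay between 5.56 and 16.8. Without those 2, 301 genes (2.57%) passed.

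Of the 278 genes, 273 were tested in the auxin-treated libraries and 157 (57.5%) had the same sign there, beside 54.5% of the genes that had not passed. The share was 70.7% of the genes that rose and 45.0% of those that fell, a difference that was not tested, and all 30 tested genes past 2-fold had the same sign. At an unadjusted p under 0.05, 77 of the 273 differed in the same direction and 3 in the opposite one. Of the 10606 tested genes that had not passed, 1182 and 550 did so. Without auxin-treated *syp-2::AID* replicates 3 and 4, 253 of 275 (92.0%) had the same sign (91.9% of those that rose and 92.1% of those that fell), beside 68.0% of the genes that had not passed. Of the 275, 50 passed in the same direction, as did 208 of the 10749 tested genes that had not passed untreated.

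*Y53G8AR.6* passed in both, with 42.6, 39.8, 41.5 and 39.04 CPM in auxin-treated *syp-2::AID*, against 66.3, 78.7, 76.9 and 72.8 CPM in auxin-treated N2 (log2 -0.85 ± 0.09, adjusted p = 0.0416). *spp-23* also passed in both, with 17.3, 20.1, 29.4 and 32.0 CPM in auxin-treated *syp-2::AID*, against 4.66, 6.97, 6.40 and 6.73 CPM in auxin-treated N2 (log2 2.00 ± 0.23, adjusted p = 0.0416). *F58G6.9* had 42.4, 39.6, 48.0 and 58.3 CPM in auxin-treated *syp-2::AID*, against 21.2, 24.6, 25.7 and 22.5 CPM in auxin-treated N2 (log2 1.00, adjusted p = 0.0626). The separation of these 3 genes, without overlap, was present with and without auxin.

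*asp-10* had 55.3, 70.7, 49.4 and 38.5 CPM in auxin-treated *syp-2::AID*, against 21.7, 25.08, 22.4 and 25.5 CPM in auxin-treated N2 (log2 1.18, adjusted p = 0.0626). *fat-7* had 193.4, 182, 234 and 224 CPM in auxin-treated *syp-2::AID*, against 131, 114, 125 and 131 CPM in auxin-treated N2 (log2 0.73, adjusted p = 0.0626). *Y41C4A.11* had 92.0, 95.6, 182 and 102 CPM in auxin-treated *syp-2::AID*, against 46.5, 49.6, 58.7 and 93.0 CPM in auxin-treated N2, a smaller difference (log2 0.93, adjusted p = 0.232) that was not shown to differ from the untreated one (interaction -1.83, adjusted p = 0.174). Of the 12 steadiest genes, 10 had the same sign in the auxin-treated libraries, the exceptions being *elo-1* and *R193.2*. Without auxin-treated *syp-2::AID* replicates 3 and 4 all 12 did, and 7 of them passed.

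The medians of the ribosomal protein and histone lists were 0.32 and 0.04 in the auxin-treated libraries, and -0.13 and -0.13 without auxin-treated *syp-2::AID* replicates 3 and 4, so the direction there rested on those libraries. The test of the difference between the 2 strain contrasts passed for 2 of 11776 genes, *cht-1*, a chitinase and one of the 278, and *egl-1*, the BH3-only activator of apoptosis, which was not. *cht-1* had 26.5, 26.7, 35.4 and 38.1 CPM in untreated *syp-2::AID*, against 19.8, 16.6, 13.4 and 20.4 CPM in untreated N2 (log2 0.85, adjusted p = 0.0363). On auxin it had 24.7, 23.9, 19.8 and 21.5 CPM in *syp-2::AID*, against 77.3, 54.0, 53.2 and 31.2 CPM in N2 (log2 -1.26, adjusted p = 0.103). The direction thus turned between the 2 sets of libraries. *egl-1* had 0.302, 0.514, 0.791 and 0.516 CPM in untreated *syp-2::AID*, against 1.16, 0.783, 1.17 and 0.867 CPM in untreated N2, 5 to 18 counts a library (log2 -0.88, adjusted p = 0.138). On auxin its difference was 2.17 (adjusted p = 0.0626).

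**Figure D5:**
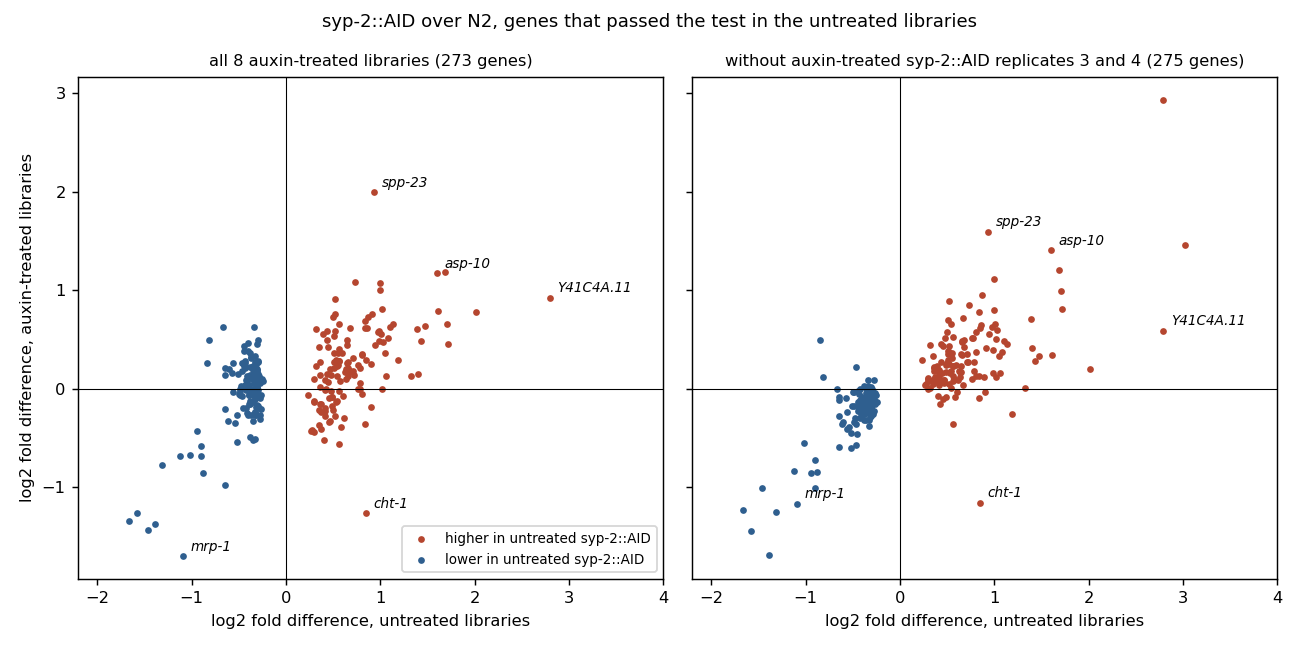
Each point is a gene that passed in the untreated libraries, with its log2 fold difference of *syp-2::AID* over N2 without auxin on the horizontal axis and in the auxin-treated libraries on the vertical axis, for all 8 of those libraries (273 genes, left) and without *syp-2::AID* replicates 3 and 4 (275 genes, right). The share of genes with the same sign was 57.5% on the left and 92.0% on the right, and *cht-1* lay on the opposite side in both.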

How the data were processed

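The authors demultiplexed reads with bcl2fastq 2.1.7, aligned them with TopHat2 2.0.11 to ce10, and deposited whole-number read counts per gene from featureCounts; DESeq2 was their test. The sources used here name neither the annotation behind the counts nor the strand setting. All 16 count columns were matched to samples by name. The 8 untreated libraries were fitted in edgeR 4.0.16 (R 4.3.3) with filterByExpr (minimum count 10, minimum total 15), TMM factors and the robust quasi-likelihood test, with standard errors and 95% intervals on the log2 scale. DESeq2 1.42.0 and limma 3.58.1 (voom) were alternatives. Interval half-widths had a median of 0.29, which sets the precision at this depth. On simulated counts for this comparison, the fit (10943 genes) recovered 47% of genes changed 1.5-fold, 81.2% changed 2-fold and 100% changed 4-fold. Whether these rates hold in the real libraries, where the first principal component held 46% of the variance, was not tested. 11 names in the table are dates made by spreadsheet software. Gene names, chromosomes and neighbours came from a newer annotation, so no coordinates are given. With 4 libraries a strain, the smallest exact permutation p of a single gene is 0.0286. P-values measure the spread between these pools of worms.

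The text names the strain genes, 20 genes each way with the greatest log2 difference among those that passed (mean of at least 1 CPM, no overlap), up to 5 members of each list, members of neighbour runs and the 5 genes called each way with the highest mean CPM. Genes outside this rule, among them *lsm-5*, *smo-1*, *mlc-4*, *cht-1*, *egl-1* and *F57H12.6*, were chosen after their values were seen, also where the text does not say so. Members and gene lists were chosen with earlier results of these data known.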

Additional observations from a re-analysis of the deposited data

Results flagged for a closer look

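Among 208 groups of 4 libraries checked, 12 held a library far from the other 3, where chance flags about 1 in 20. N2 replicate 4 was the odd library in 5 of them: *clec-85* at 20.9 CPM (the others at least 29.2), *elo-2* at 102 CPM, *acs-1* at 177 CPM, *cpr-5* at 735 CPM, and the summed oocyte and eggshell genes at 17400 CPM (the others 18900). Other N2 libraries stood apart in *clec-41* (replicate 3, 13.7 CPM), *elo-1* (replicate 2, 159 CPM), *bre-3* (replicate 1, 38.8 CPM) and the summed major sperm proteins (replicate 2, 73.0 CPM, the lowest 2.89). In *syp-2::AID*, *fat-7* was high in replicate 4 at 399 CPM, *mrp-5* in replicate 3 at 103 CPM, and the summed hypodermis markers in replicate 3 at 85.1 CPM.

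The strain difference with auxin, less that without, was -2.09 on the log2 scale for *cht-1* and 3.08 for *egl-1* (edgeR interaction test, adjusted p = 0.0304 for each).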

How the results depend on the processing

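The 278 genes became 556 with upper-quartile factors, 437 with no filter beyond 1 count, 992 in DESeq2, 177 without robust estimation, 103 in the fit of all 16 libraries, and 101 with the exon-length trend of each library removed. With library totals alone there were 766, of which 687 (89.7%) were higher, beside 49.6% in the main split, and the median of all genes shifted by 0.14. Past 2-fold, the 35 became 93 with library totals alone, 72 without the filter and 94 in DESeq2. Leaving out 1 library gave 15 to 2015 genes, and 4 to 334 past 2-fold. All 278 genes kept their sign under every setting, except that 9 of them were not tested with at least 10 counts in every library. These genes were picked on the same libraries, so their signs had little room to turn. The cause of the change in counts was not tested.

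Same-numbered libraries of the strains did not deviate together throughout (correlations -0.03, 0.39, -0.36 and 0.27). The check cannot decide whether the numbers pair them, since 1 axis held 46% of the variance of the 8 libraries. The main fit did not pair them. With the replicate block, 1194 genes passed (439 higher, 755 lower), 87 past 2-fold.

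The *syp-2* difference was 0.023 with upper-quartile factors, 0.12 with library totals alone and 0.0033 without the filter, and lay between -0.069 and 0.016 when 1 library was left out (above 0 without *syp-2::AID* replicate 1, N2 replicate 2 or N2 replicate 3). *unc-119* came to 0.00063 with library totals alone and *dpy-10* to between -0.63 and 0.061 when 1 library was left out, the highest without N2 replicate 4. In the auxin-treated libraries without *syp-2::AID* 3 and 4, the share of the same sign was 92.0% and 50 genes passed in the same direction, beside 57.5% and 2. Over the named genes, alternatives left the side of the threshold as it was 1135 times and lost the call 524 times. A gene given above without a count of lost calls may also have lost its call.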
